A study of Mus musculus with 12 samples.

Results

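The genes described here are Enpp2 and the genes of lysophosphatidic acid (LPA) signalling that were listed with it: the receptors Lpar1, Lpar2, Lpar4 and Lpar6 and the phosphatases Plpp1, Plpp2 and Plpp3. These are 8 of the 53819 gene symbols in the deposited table. Enpp2 was chosen by its measured level, which was higher with proline and stayed higher when budesonide was present, so its values are given as a description with no test. The other 7 were listed as receptors and phosphatases of LPA, with earlier results of these data known. Of the 8, 7 passed the filter on low counts and Plpp1 did not.

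LPA is a small phospholipid that acts outside the cell. Enpp2 encodes autotaxin, a secreted enzyme that makes LPA from lysophosphatidylcholine. LPA binds G protein-coupled receptors of separate families: Lpar1 and Lpar2 are close to the sphingosine 1-phosphate receptors, and Lpar4 and Lpar6 are close to the purinergic P2Y receptors. Plpp1, Plpp2 and Plpp3 are membrane phosphatases that remove the phosphate of LPA and so end its action. Through its receptors LPA is known to act on the actin cytoskeleton, Yap and Srf.

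The cells were E14, a mouse embryonic stem cell line, grown in 2 dimensions. The labels form 4 groups with 3 libraries in each: untreated control, L-proline for 72 h, the synthetic glucocorticoid budesonide for 72 h, and proline with budesonide for 72 h (here "both compounds"). The labels give no dose, and nothing in them says that the 3 libraries of a group came from separate cultures, so p-values speak only of library-to-library spread, part of which may be technical. Messenger RNA was counted near its 3′ end, and levels are in CPM, counts scaled by the library's TMM-adjusted total so that libraries of unequal depth can be compared, with group values as mean ± SD over n = 3 libraries. In bulk RNA, fewer cells that express a gene and less RNA per cell cannot be told apart.

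Totals ran from 5299432 to 15921283 counts per library, so that 1 CPM stood for 5.19 to 15.3 counts. Control 3 and budesonide 3 stood apart: 6.57% and 8.43% of tested genes had 0 counts there, while the rest of the libraries ranged from 1.39% to 5.77%. Stem cell markers (8 of 8 tested, among them Pou5f1, Sox2 and Nanog) were present in all groups and summed to 2267 to 2670 CPM over the 12 libraries, but single markers moved. With proline Nanog, Zfp42 and Esrrb fell and Lin28a rose. Esrrb stood at 376 ± 56.7 CPM in control, 118 ± 13.3 for proline, 368 ± 38.3 for budesonide and 340 ± 53.4 for both, and Nanog at 217 ± 41.0, 111 ± 17.1, 271 ± 35.2 and 278 ± 11.2. For both against proline Nanog, Zfp42 and Esrrb rose, and Lin28a and Utf1 fell. Markers of the formative and primed epiblast (9 genes, all 9 tested) summed to 716 to 757 CPM in control, 2602 to 2840 for proline, 485 to 571 for budesonide and 933 to 983 for both compounds. Markers of extraembryonic and definitive endoderm (8 of 12 tested) summed to 203 to 235, 228 to 248, 112 to 151 and 147 to 174 CPM in the same order, with Ttr at 0 counts. Most of that sum was Lamb1, at 203 ± 18.4 CPM in control and 120 ± 13.1 with budesonide, which fell, while Dab2 stood at 3.59 ± 3.26 and 5.44 ± 4.06. The log2 changes of Gata4, Gata6, Sox7 and Foxa2 with budesonide were -1.56, -0.98, -2.08 and -0.59. That of Pdgfra was 1.63, and neither these genes nor Dab2 were called. The list's median log2 change there was -0.68. Sox17 stood at 0.0514 ± 0.0890 CPM in control and 2.74 ± 2.17 with budesonide. It was called higher (edgeR quasi-likelihood test with Benjamini-Hochberg adjustment over all genes, adjusted p = 0.0383), a call that ended in 11 of 19 alternatives, among them without any 1 control library, proline 3, budesonide 1, budesonide 3 or both 2 (0.0502 to 0.126). Neural and glial markers (6 of 10 tested) summed to 56.5 to 61.5 CPM in control, 44.6 to 51.4 for proline, 71.1 to 76.8 for budesonide and 76.8 to 95.8 for both. Streak and mesoderm markers (4 of 10 tested) summed to 6.08 to 17.7 CPM, with Foxf1 and Msgn1 at 0 counts.

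RefSeq promoter sequences (build GRCm38.p6, 250 bases before to 50 after a transcript's start) were given for 6 of the 8 genes, and those of Enpp2 and Plpp1 were not among them. The promoters of Plpp3 and Lpar1 are shown because these were the tested phosphatase and receptor that rose for both compounds against proline. For budesonide alone against control Plpp3 rose and Lpar1 was not called (edgeR, adjusted p = 0.154). Plpp3 lies at chr4:105157097-105157396 on the + strand. The start of Lpar1 that lies farthest upstream of its 3 starts lies at chr4:58553442-58553741 on the - strand. Capitals mark AGAACA, a single arm of the element that the glucocorticoid receptor binds; all motifs were searched on both strands.
Plpp3: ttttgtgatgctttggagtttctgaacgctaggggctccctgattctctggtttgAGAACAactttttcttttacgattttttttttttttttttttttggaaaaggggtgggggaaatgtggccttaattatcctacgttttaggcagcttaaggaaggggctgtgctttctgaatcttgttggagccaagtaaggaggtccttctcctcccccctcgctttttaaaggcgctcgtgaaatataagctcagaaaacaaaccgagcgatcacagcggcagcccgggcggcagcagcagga
Lpar1: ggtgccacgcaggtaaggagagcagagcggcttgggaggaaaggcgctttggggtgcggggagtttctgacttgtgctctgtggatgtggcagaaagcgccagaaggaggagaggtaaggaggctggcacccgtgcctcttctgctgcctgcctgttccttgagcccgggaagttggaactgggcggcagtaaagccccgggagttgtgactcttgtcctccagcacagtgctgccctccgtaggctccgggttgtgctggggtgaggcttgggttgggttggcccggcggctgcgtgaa

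The hexamer AGAACA stood in the Plpp3 promoter and in that of Plpp2, and in 19% of all 32851 promoters of this length. It was not found at any of the 3 starts of Lpar1. The full palindrome, AGAACA and TGTTCT with 3 bases between them and so overlapping the hexamer, stood in no promoter of the 6 genes, nor did its looser form, GNACA and TGTNC with 3 bases between. These stood in 0.00913% and 0.475% of all promoters. Other motifs were TGANTCA of AP-1, found once in Lpar2 (7.81% of all promoters), and GGAATG of Tead, found once in Lpar6 (14.7%). The octamer ATGCAAAT (1.74% of all promoters), the Otx2 motif TAATCC (7.06%) and the CArG box of Srf (1.63%) were not found in the 6 genes. These matches describe letters in a window and say nothing on binding.

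Enpp2 was lowest with budesonide, higher in control, higher again with both compounds and highest with proline alone. Its level was 5.56, 5.01 and 4.32 CPM in the control libraries and 40.8, 47.1 and 51.0 CPM with proline. With budesonide it was 1.92, 1.55 and 1.84 CPM, and with both compounds 14.6, 12.1 and 10.4 CPM. The libraries of the 4 groups did not overlap at any step of this order. Group means were 4.96 ± 0.624 CPM in control, 46.3 ± 5.13 for proline, 1.77 ± 0.194 for budesonide and 12.4 ± 2.11 for both. These values rest on 88, 1309, 41 and 256 counts.

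As a description of what the gene was picked for, the proline mean was 9.33 times the control mean. The mean with both compounds was 6.995 times the budesonide mean and 2.49 times the control mean. The log2 change was 3.22 ± 0.31 (SE) for proline against control and 2.79 ± 0.33 for both against budesonide, which differ by -0.43 ± 0.45. The proline mean was 3.74 times that of both compounds, a log2 change of -1.90 ± 0.28 for both against proline. With budesonide present, the starting level without proline was lower as well.

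Budesonide against control rests on the same control and budesonide libraries on which Enpp2 was chosen, so it too is a description. The control mean was 2.80 times the budesonide mean, a log2 change of -1.47 ± 0.34, and all 3 budesonide libraries lay below all control libraries. In this comparison 6.51% of all tested genes were called (2.51% higher and 4% lower), and in 23.7% the 2 groups did not overlap. Over the alternatives the log2 change stayed between -1.59 and -1.38. Of the marker sums given above, those of the stem cell, the formative and epiblast, and the endoderm lists were also lower with budesonide than in control. The stem cell sum was 2559 to 2670 CPM in control and 2267 to 2480 with budesonide. In the endoderm list the lower sum lay mostly in Lamb1. The part of these markers in the Enpp2 values was not tested.

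**Figure D1:**
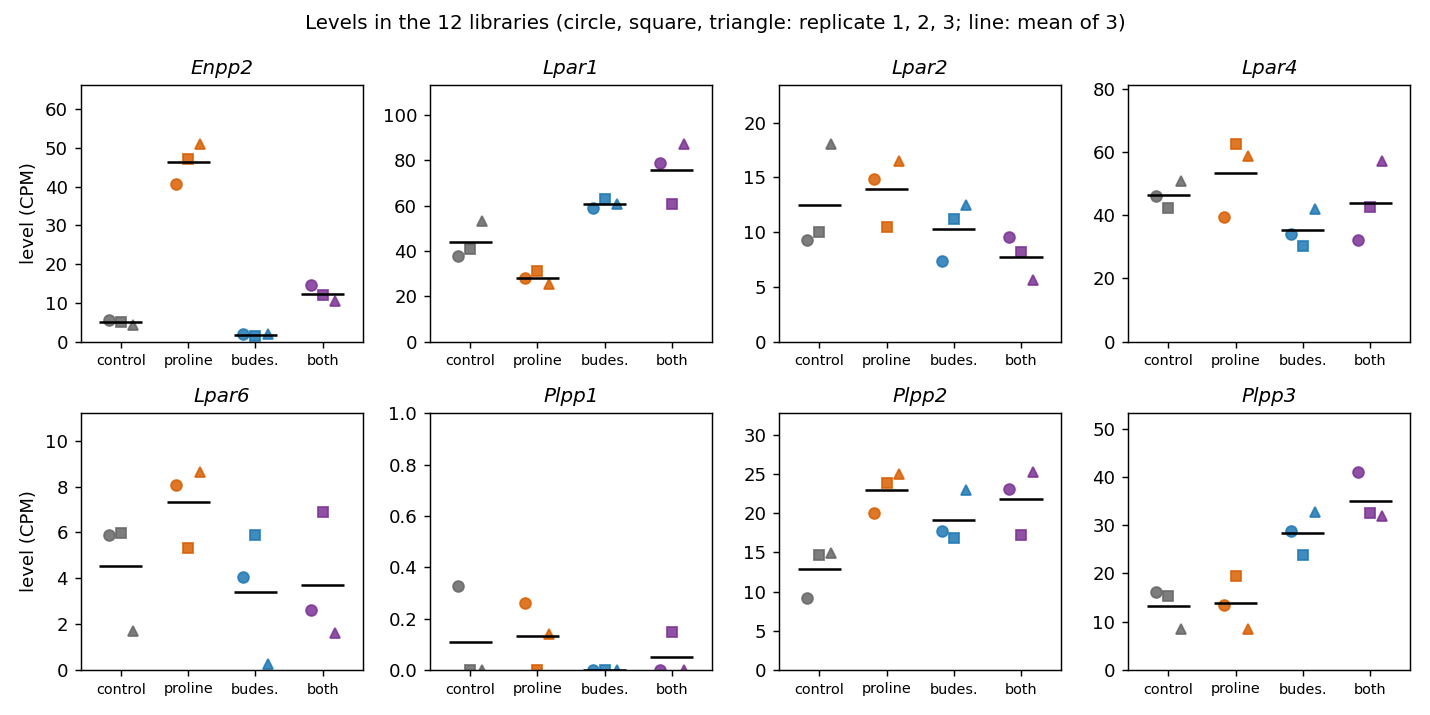
Level of each of the 8 genes in CPM (y axis, from 0, its own scale in each panel) by group (x axis; budes. is budesonide, both is proline with budesonide). Symbols are single libraries and the line is the mean of 3; Enpp2 separates all 4 groups, Lpar1 and Plpp3 are higher in the budesonide groups, and Plpp1 stays near 0.

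The genes with the pattern most like Enpp2 were found by Pearson correlation of log2 CPM over the 12 libraries, as a description. The 8 highest were Pim2 (r = 0.973), Ina (0.970), Nap1l1 (0.970), Vrtn (0.969), Otx2 (0.968), Eif4h (0.966), Rbbp4 (0.959) and Pou3f1 (0.954). The 12 libraries fall into 4 groups that all genes share, so these are not 12 independent conditions. Pim2, a kinase gene, had 46.1 ± 7.23 CPM in control and 368 ± 26.3 with proline. Budesonide gave 25.6 ± 2.65 CPM and both compounds 79.0 ± 3.82. Vrtn had 14.0 ± 1.59, 53.8 ± 10.5, 5.49 ± 0.318 and 18.3 ± 4.60 CPM in the same order. Otx2, a homeobox gene of the epiblast, had 107 ± 6.89, 250 ± 10.1, 76.2 ± 9.27 and 143 ± 23.7 CPM. The POU factor gene Pou3f1 had 53.0 ± 9.22, 471 ± 70.2, 48.6 ± 4.21 and 140 ± 14.5 CPM. Pim2, Otx2 and Pou3f1 are among the formative and epiblast markers whose sum is given above.

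**Figure D2:**
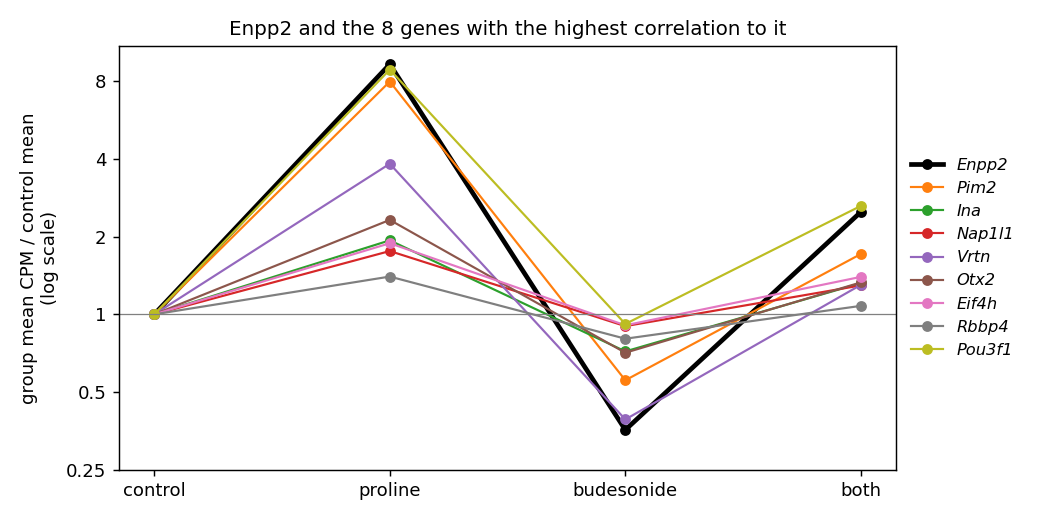
Group mean CPM divided by the control mean (y axis, log scale) for Enpp2 and the 8 genes most correlated with it over the 12 libraries, by group (x axis). Lines only join the means of a gene; Enpp2 and Vrtn are the lowest in the budesonide group relative to control, and all 9 genes peak with proline.

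Neighbours of Enpp2 were taken from the gene order of RefSeq. On one side lie Ccn3 (31 counts in all), Mal2 and Colec10 (0 counts in all), and on the other Taf2, Dscc1 and Deptor. Mal2, a membrane traffic gene, had 0.947 ± 0.188 CPM in control and 7.35 ± 2.11 with proline, beside 1.11 ± 0.777 with budesonide and 2.06 ± 1.14 with both. It rose with proline by 2.93 ± 0.88 on the log2 scale (edgeR, adjusted p = 0.0416, higher in 3 of 3 libraries). That call ended when any 1 control or proline library was left out (adjusted p = 0.0617 to 0.164) or both 2 (0.052), with no low-count filter (0.0853), with limma-voom (0.0566) and with the replicate block (0.0671). Taf2, Dscc1 and Deptor had log2 changes of 0.25 ± 0.23, 1.003 ± 0.47 and -0.02 ± 0.18 with proline, and none of these was called.

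Other members of the Enpp2 family are best known for splitting nucleotides or choline phospholipids. Of the family's 7 genes, 4 were tested, Enpp2 among them. Enpp3, an ectoenzyme that splits nucleotides, had 31.3 ± 19.4, 57.4 ± 8.49, 35.7 ± 7.03 and 48.6 ± 8.99 CPM in control, proline, budesonide and both. Its log2 change with proline was 0.88 ± 0.34 (adjusted p = 0.130), and it was called with limma-voom (0.0287), with no low-count filter (0.00381) and without control 1 (0.0451). Enpp4 had 3.42 ± 1.74, 6.51 ± 2.33, 1.88 ± 0.843 and 2.42 ± 0.486 CPM in the 4 groups. Enpp5 had 2.16 ± 2.44 to 2.73 ± 2.71 CPM. Of these 3 genes edgeR called none in the 6 comparisons. At an unadjusted p below 0.05 there was 1 result, DESeq2 called 0 and limma-voom 1. Enpp6 and Enpp7 had 0 counts in all 12 libraries, and Enpp1 had 68.

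Lpar1, the receptor that couples to several G protein classes and is known from neural progenitors and fibroblasts, was lowest with proline and highest with both compounds. It stood at 37.6, 40.9 and 53.0 CPM in control and 28.1, 30.9 and 25.3 with proline. With budesonide it stood at 59.0, 62.9 and 60.8 CPM, and with both compounds at 78.6, 60.8 and 87.1. All 3 proline libraries lay below all control libraries and all budesonide libraries above them, while budesonide and both compounds overlapped. Of all tested genes 26.7% (proline) and 23.7% (budesonide) had groups that did not overlap with control. For both against proline Lpar1 rose by 1.43 ± 0.19 on the log2 scale (edgeR, adjusted p = 2.91e-05, higher in 3 of 3 libraries). This call held in all 19 alternatives, with log2 changes of 1.31 to 1.56.

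With proline alone Lpar1 fell, with a log2 change of -0.64 ± 0.19 (edgeR, adjusted p = 0.0417). It was the 1 call among the 6 tested receptors and phosphatases in proline against control. Of all tested genes 7.88% were called there (3.17% higher and 4.71% lower), and in 26.7% the 2 groups did not overlap. That call ended in 12 of 19 alternatives: without control 2 (adjusted p = 0.0738), control 3 (0.197), proline 1 (0.124), proline 2 (0.0591), proline 3 (0.151), budesonide 2 (0.0511) or both 1 (0.0603), without control 3 and budesonide 3 together (0.153), with no low-count filter (0.0509), with limma-voom (0.0706), in a fit of only these 6 libraries (0.0824) and with the replicate block (0.0679). The range was 0.0220 to 0.197 and the direction stayed the same. Budesonide alone gave 0.47 ± 0.19 (95% interval 0.08 to 0.87, adjusted p = 0.154), and proline in the presence of budesonide 0.31 ± 0.19 (-0.08 to 0.70, adjusted p = 0.525).

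The difference between the proline effects on Lpar1 with and without budesonide was 0.95 ± 0.27 on the log2 scale (95% interval 0.40 to 1.51). It was not called with edgeR (adjusted p = 0.163) and was called with DESeq2 (0.0409), over a range of 0.0409 to 0.413. Of the 6 tested receptors and phosphatases edgeR called 0 for this interaction, limma-voom 0 and DESeq2 1, and 1 had an unadjusted p below 0.05. Of all tested genes 0.469% were called (0.411% higher and 0.0578% lower). With both compounds Lpar1 stood 0.78 ± 0.19 above control (adjusted p = 0.0121). That call ended without control 1 (0.0667), control 2 (0.0535), both 1 (0.0576) or both 3 (0.0681), over a range of 0.00221 to 0.0681.

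Lpar4, which couples to stimulatory and other G proteins, passed the test in no comparison. It stood at 46.1, 42.2 and 50.9 CPM in control, 39.4, 62.5 and 58.6 for proline, 34.1, 30.2 and 42.0 for budesonide, and 32.1, 42.7 and 57.1 for both. The budesonide libraries all lay below the control libraries, at the closest 42.0 against 42.2 CPM, and the other groups overlapped with control. Of all tested genes 23.7% had groups that did not overlap in budesonide against control. Its log2 change was 0.20 ± 0.23 with proline (95% interval -0.27 to 0.67, adjusted p = 0.729), -0.39 ± 0.23 with budesonide (-0.87 to 0.09, adjusted p = 0.372) and -0.28 ± 0.23 for both against proline (-0.75 to 0.19, adjusted p = 0.529).

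Lpar2 stood at 9.33, 10.02 and 18.04 CPM in control, 14.8, 10.5 and 16.5 for proline, 7.33, 11.2 and 12.5 for budesonide, and 9.53, 8.19 and 5.60 for both. Control 3, one of the libraries that stood apart, was the highest of the 12. All libraries of both compounds lay below those of proline, a comparison in which 31.9% of all tested genes had groups that did not overlap. The log2 change there was -0.85 ± 0.38 (95% interval -1.64 to -0.06, adjusted p = 0.180), so the test after adjustment over all genes was not passed.

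Lpar6, the P2Y-type receptor known for its role in hair growth, was the receptor with the fewest counts among those tested, 451 in all. It stood at 5.89, 5.98 and 1.70 CPM in control, 8.05, 5.33 and 8.61 for proline, 4.06, 5.89 and 0.263 for budesonide, and 2.61, 6.87 and 1.60 for both. Its lowest values in control and budesonide were those of control 3 and budesonide 3. The groups overlapped in every comparison, and a log2 change with proline of 0.70 ± 0.77 left a 95% interval of -0.89 to 2.29. Lpar6 lies within the span of Rb1, which had 813 counts in all. Since the strand setting of the counting is not given in the sources used here, reads of the pair may not be fully told apart. Rb1 had a log2 change of -0.24 ± 0.46 with proline.

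Among receptors that are no members, Lpar3 had 9 counts in all, of which 8 were in both 2. Lpar5 and P2ry10 had 0 counts in all libraries, which allows up to 0.169 CPM in control, 0.103 for proline, 0.131 for budesonide and 0.144 for both (3 counts over the 3 libraries of a group, counting error only). The summed level of Lpar1 to Lpar6 was 107 ± 14.2 CPM in control, 103 ± 10.9 for proline, 110 ± 5.60 for budesonide and 131 ± 17.4 for both. Reads come from the 3′ end of a transcript, so levels were not divided by length.

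The makeup of these counts is given as a description with no test. Lpar1 took 38.0%, 41.2% and 42.9% of the receptor counts in control and 31.1%, 28.3% and 23.2% with proline. It took 56.5%, 57.1% and 52.6% with budesonide and 64.0%, 50.8% and 57.5% with both compounds. The proline libraries lay below all others and the control libraries below those with budesonide. The Lpar4 share was 43.5% ± 2.83 in control, 51.5% ± 7.08 for proline, 32.1% ± 4.47 for budesonide and 33.2% ± 6.16 for both (SD, n = 3).

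**Figure D3:**
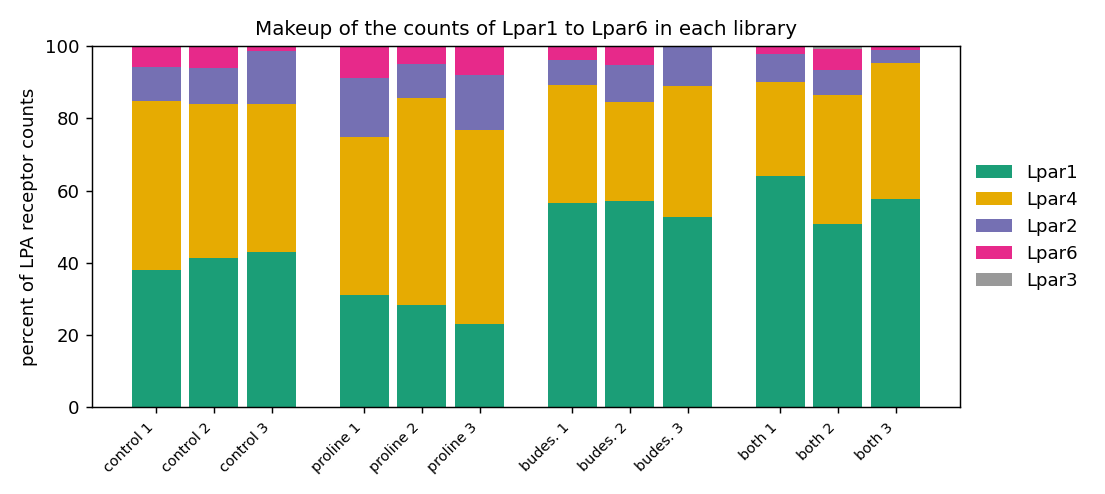
Percent of the counts of Lpar1 to Lpar6 that each receptor took (y axis, 0 to 100) in each of the 12 libraries (x axis; budes. is budesonide, both is proline with budesonide). Lpar1 takes 23.2% to 31.1% with proline and 50.8% to 64.0% in the groups with budesonide.

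Plpp3, a lipid phosphate phosphatase needed for early vascular and axial development, was about as low with proline as in control and higher wherever budesonide was present. It stood at 16.0, 15.2 and 8.48 CPM in control and 13.3, 19.5 and 8.48 with proline. With budesonide it stood at 28.8, 23.7 and 32.8 CPM, and with both compounds at 40.9, 32.5 and 31.9. Every library with budesonide lay above every library without it. The share of all tested genes with that split was not counted. In budesonide against control 23.7% of all tested genes had groups that did not overlap. Plpp3 rose by 1.10 ± 0.31 on the log2 scale with budesonide alone (edgeR, adjusted p = 0.0314), the 1 call among the 6 tested receptors and phosphatases in that comparison, where 6.51% of all tested genes were called. Plpp3 rose by 1.35 ± 0.31 for both against proline (adjusted p = 0.00516), where 2 of the 6 were called, Lpar1 and Plpp3, against 10.1% of all tested genes (5.83% higher and 4.27% lower) and 31.9% with groups that did not overlap. For both against control 2 of the 6 rose, the same pair, against 7.17% of all tested genes (3.34% higher and 3.83% lower) and 28.4% with groups that did not overlap. Plpp3 changed there by 1.41 ± 0.31 (adjusted p = 0.00586).

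The call of Plpp3 for budesonide alone ended without control 2 (adjusted p = 0.0570), control 3 (0.133), budesonide 1 (0.0694) or budesonide 3 (0.0967), without control 3 and budesonide 3 together (0.247, with a log2 change of 0.75) and in a fit of only these 6 libraries (0.0683), over a range of 0.0104 to 0.247. Its calls for both against proline and both against control held in all 19 alternatives each (highest adjusted p = 0.0397 and 0.0404). The proline effect on Plpp3 was 0.06 ± 0.31 without budesonide (95% interval -0.58 to 0.70) and 0.30 ± 0.30 with it (-0.31 to 0.92).

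Lpar1 and the stem cell markers Nanog, Zfp42 and Esrrb shared their called directions, down with proline and up for both against proline. The Lpar1 call with proline did not hold in all alternatives, as given above. Krt8, Tubb3 and Pecam1 of other marker lists had the same called directions. Of the other stem cell markers Lin28a went the other way each time and Utf1 fell for both against proline. Pou5f1, Sox2 and Sall4 were called in neither comparison. Summed levels of 4 lists of markers of other cells were higher with budesonide than in control, the neural and glial list given above among them. Most of the neural and glial sum was Tubb3, at 44.5 ± 3.97 CPM in control and 54.8 ± 3.38 with budesonide, which was not called. Nes of that list stood lower, at 3.55 ± 1.85 and 2.71 ± 1.64. The fibroblast and feeder markers (5 of 10 tested) summed to 363 to 445 CPM in control, 348 to 453 for proline, 642 to 673 for budesonide and 658.5 to 691.5 for both. Most of that sum was fibronectin (Fn1), with 401 ± 41.1 CPM in control and 647 ± 18.6 with budesonide, the only gene of the list that rose. Thy1 stood at 8.12 ± 1.19 CPM in control, 11.9 ± 5.27 for proline, 2.44 ± 1.501 for budesonide and 1.21 ± 0.162 for both. It fell for both against proline (edgeR, adjusted p = 0.000976) and for both against control (0.00648, and 0.0808 with limma-voom). Dcn stood at 1.03 ± 0.890 CPM in control and had 0 counts with budesonide, Postn and Lum had 0 counts in all libraries, and the list's median log2 change was -0.39 with budesonide and -3.29 for both against proline. Trophoblast markers (9 of 10 tested) summed to 69.4 to 82.4, 49.5 to 74.5, 111 to 152.4 and 138.3 to 159.1 CPM in the same order. Krt18 was the only gene of that list that rose with budesonide, from 12.2 ± 2.09 to 33.8 ± 4.32 CPM. Endothelial and blood markers (3 of 8 tested) summed to 39.3 to 58.0, 14.8 to 34.0, 76.1 to 100.4 and 55.5 to 62.6 CPM, with Hbb-bt at 0 counts. Most of that sum was Pecam1, at 36.4 ± 9.74 CPM in control and 81.1 ± 10.8 with budesonide, the only gene of the list that rose. Tek stood lower with budesonide, at 4.32 ± 3.81 CPM against 7.26 ± 2.54 in control, and was not called. The part of these genes in the values of Lpar1 and Plpp3 was not tested.

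Plpp2, a phosphatase of the same family, stood at 9.16, 14.6 and 14.96 CPM in control and 20.1, 23.8 and 25.01 with proline. With budesonide it stood at 17.7, 16.9 and 22.9 CPM, and with both compounds at 23.1, 17.3 and 25.2. All treated libraries lay above the control libraries, and the treated groups overlapped one another. Of all tested genes 26.7% (proline), 23.7% (budesonide) and 28.4% (both) had groups that did not overlap with control. The log2 change was 0.83 ± 0.28 with proline (adjusted p = 0.0816, range over alternatives 0.0531 to 0.298), 0.57 ± 0.29 with budesonide (adjusted p = 0.273) and 0.76 ± 0.29 with both against control (adjusted p = 0.120), none of which was called. Plpp1 had 2 counts in control, 5 for proline, 0 for budesonide and 1 for both, at or near the floor of 3 counts, so no fold is given. It shares part of its span with Mtrex, which had 15207 counts in all.

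The summed level of Plpp1 to Plpp3 was 26.3 ± 3.28 CPM in control, 36.9 ± 5.61 for proline, 47.6 ± 7.61 for budesonide and 57.0 ± 7.06 for both. For proline in the presence of budesonide, edgeR called 0 of the 6 tested receptors and phosphatases, with 0 at an unadjusted p below 0.05 and 0 with DESeq2 or limma-voom. Of all tested genes 1.47% were called in that comparison (0.874% higher and 0.592% lower), and in 19.4% the 2 groups did not overlap.

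**Figure D4:**
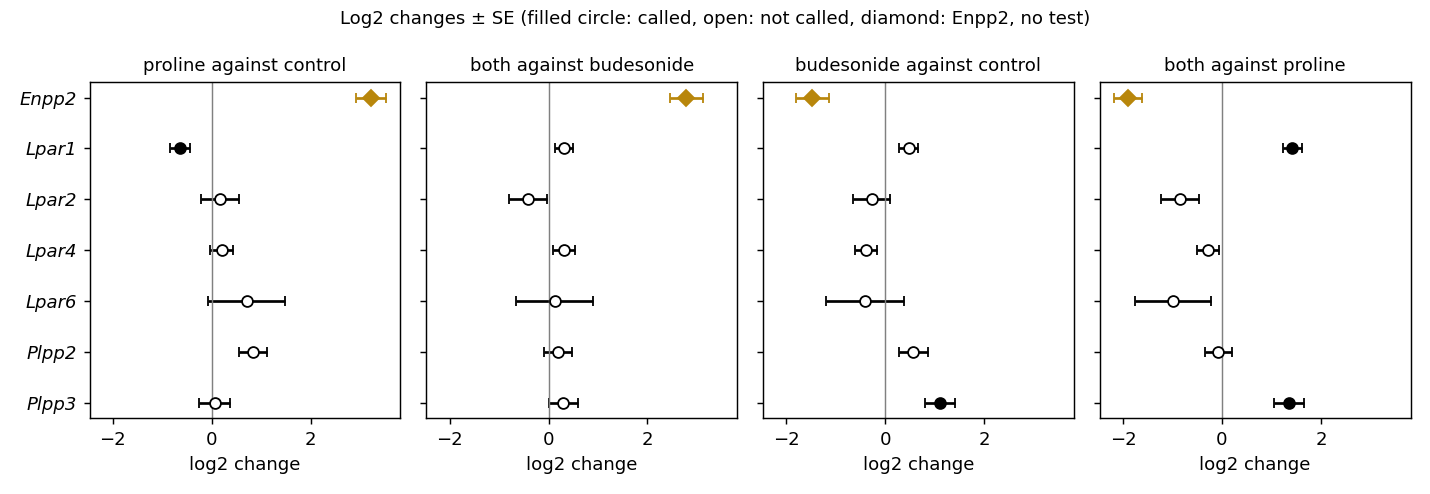
Log2 change (x axis) with its SE (bars) of the 7 tested genes (y axis) in 4 comparisons, 1 panel each. Filled circles passed the test, open circles did not, and diamonds are Enpp2, given with no test; Lpar1 and Plpp3 are the receptor and phosphatase that rose for both against proline.

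Other genes that make LPA or its precursors came from a list of 10, of which 8 were tested. With proline 2 of the 8 rose and none fell, where 3.17% of all tested genes rose and 4.71% fell, and the list median was 0.74, against -0.009 for all genes. Pla2g12a, a secreted phospholipase A2, stood at 20.8 ± 4.62 CPM in control and 52.9 ± 3.40 with proline (log2 1.35 ± 0.24, edgeR, adjusted p = 0.000763, called in all 19 alternatives). Liph, a membrane lipase that makes LPA from phosphatidic acid, had 7.36 ± 3.00, 17.5 ± 6.94, 13.2 ± 3.70 and 22.2 ± 3.44 CPM in control, proline, budesonide and both. It rose by 1.26 ± 0.37 with proline (adjusted p = 0.0372) and by 1.60 ± 0.37 with both against control (0.00912). In the latter comparison Liph was the 1 of the 8 that rose, where 3.34% of all tested genes rose. The first call ended without control 1 (0.176), control 3 (0.0815), proline 1 (0.228), proline 3 (0.0850), both 1 (0.0537) or both 2 (0.0523), with limma-voom (0.0563), with only those 6 libraries (0.0626) and with the replicate block (0.0604). The other ended without control 1 (0.0590) or both 1 (0.0521). Ranges over alternatives were 0.0169 to 0.228 and 0.00138 to 0.0590.

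For both against proline 2 of these 8 rose, where 5.83% of all tested genes rose, with a list median of -0.38 against 0.02 for all genes. Pla1a, a phospholipase that splits phosphatidylserine, changed by 1.59 ± 0.45 (adjusted p = 0.0251), from 5.17 ± 3.26 to 15.5 ± 4.84 CPM. Agk, a mitochondrial kinase that makes LPA from monoacylglycerol, changed by 1.43 ± 0.43 (adjusted p = 0.0337), from 3.57 ± 0.978 to 9.57 ± 2.80 CPM. The Pla1a call ended without proline 1 (0.120), proline 3 (0.118) or both 1 (0.142). That of Agk ended without proline 1 (0.0996), proline 3 (0.120), both 2 (0.0981) or both 3 (0.117), with no filter (0.0729) and with limma-voom (0.0606), over ranges of 0.00528 to 0.142 and 0.0144 to 0.120. Of 15 tested acyltransferases that make or use LPA inside the cell, edgeR, DESeq2 and limma-voom called 0 in each of the 6 comparisons, with 6 of 90 results at an unadjusted p below 0.05. Their median log2 change was 0.09 with proline and -0.12 with budesonide. In the wider list of 13 lipid phosphate phosphatases, 7 were tested and 1 fell with proline, against 4.71% of all tested genes. This was the LPA phosphatase Acp6, which fell by 0.58 ± 0.13 on the log2 scale (adjusted p = 0.00433, range 9.17e-05 to 0.0314), from 159 ± 8.54 to 106 ± 2.06 CPM.

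Downstream of the receptors, Rock1 and Rock2, which encode protein kinases of the actin cytoskeleton, fell with proline. Rock1 went from 199 ± 20.7 CPM in control to 95.9 ± 15.5 with proline, 137 ± 22.9 with budesonide and 144 ± 4.24 with both. It changed by -1.05 ± 0.15 with proline (edgeR, adjusted p = 4.75e-05, lower in 3 of 3 libraries), and the change was called in all 19 alternatives. In the presence of budesonide the proline change was 0.07 ± 0.15 (95% interval -0.24 to 0.37), and the difference of 1.12 ± 0.21 was itself called (adjusted p = 0.00882). Rock1 fell with budesonide alone by 0.54 ± 0.15 (adjusted p = 0.0272), a call that ended without control 1 (0.0604), control 2 (0.133) or budesonide 3 (0.142), without control 3 and budesonide 3 together (0.0879) and with only those 6 libraries (0.0676). For both against proline it rose by 0.58 ± 0.15 (0.0127; 0.0831 without proline 3 and 0.0503 without both 1). Rock2 changed by -0.59 ± 0.16 with proline (0.0231; 0.0604 to 0.174 without control 1 or any 1 proline library). The G protein gene Gna13 rose for both against proline by 0.70 ± 0.18 (0.0139; 0.0503 to 0.107 without proline 2, proline 3, both 1 or both 2). Ranges over alternatives were 0.00737 to 0.142 and 0.00267 to 0.0831 for those Rock1 calls, 0.00712 to 0.174 for Rock2 and 0.00443 to 0.107 for Gna13.

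Of 14 tested genes of the Yap and Taz pathway, 1 was called with proline, a share near the 7.88% of all tested genes. It was the DNA-binding partner Tead2, which rose from 23.1 ± 3.94 to 77.3 ± 5.51 CPM (log2 1.74 ± 0.20, edgeR, adjusted p = 3.21e-06). With both against control Tead2 rose by 1.19 ± 0.20 (adjusted p = 0.000568) and Ajuba, an adaptor protein of cell junctions, fell by 0.63 ± 0.15 (0.00829; 0.0649 without control 3 and 0.0757 without both 1). They were 2 of the 14, where 3.34% of all tested genes rose and 3.83% fell. The list median was 0.07 with proline and 0.51 with budesonide, against -0.009 and 0.01 for all genes. With budesonide alone edgeR called 0 of the 14, with 4 at an unadjusted p below 0.05, DESeq2 called 2 and limma-voom 0. For both against proline 2 of the 14 rose and 1 fell, where 5.83% of all tested genes rose and 4.27% fell. Tead1 changed by 1.13 ± 0.18 (adjusted p = 0.000163), Wwtr1, which encodes Taz, by 0.73 ± 0.22 (0.0403; 0.0763 to 0.139 without any 1 library of these groups, and 0.0642 with the replicate block) and Ajuba by -0.56 ± 0.15 (0.0141; 0.0908 without proline 2, 0.105 without both 1 and 0.0533 without both 2). Both calls of Tead2 and that of Tead1 held in all 19 alternatives each, and the ranges were 0.000392 to 0.0757 and 0.00143 to 0.105 for Ajuba and 0.00381 to 0.139 for Wwtr1.

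Of 15 tested Srf cofactors and targets, 1 was called with budesonide alone, a share near the 6.51% of all tested genes. It was the actin crosslinker filamin A (Flna), which rose from 231 ± 12.5 to 366 ± 69.1 CPM (log2 0.66 ± 0.13, edgeR, adjusted p = 0.00230, called in all 19 alternatives). The list median there was 0.13. Flna fell for both against budesonide by 0.65 ± 0.13 (0.00870; 0.0545 without budesonide 3 and 0.0515 without both 3). With both against control 2 of the 15 fell, Egr1 and Actb, where 3.83% of all tested genes fell. In proline against control, both against proline and both against budesonide 1 of the 15 was called each. The shares of all tested genes called there were 7.88%, 10.1% and 1.47%. With both against control the immediate early gene Egr1 fell by 1.69 ± 0.33 (edgeR, adjusted p = 0.00234, range 2.38e-07 to 0.0206), from 47.8 ± 3.14 to 14.8 ± 8.67 CPM. Egr1 stood at 26.3 ± 4.74 CPM with proline and 23.8 ± 8.58 with budesonide. Neither change from control was called with edgeR on all 12 libraries and the filter, while limma-voom called each (0.02225 and 0.0239). Each was also called by edgeR with no low-count filter (0.0315 and 0.00799) and with only the libraries compared (0.0177 and 0.0497). The budesonide change was called with DESeq2 (0.0359). With edgeR it was called without budesonide 1 (0.0360), both 2 (0.0385) or both 3 (0.0322). The beta-actin gene Actb fell by 0.26 ± 0.08 with both against control (edgeR, 0.0416). That Actb call ended in 11 of 19 alternatives, among them without control 2, control 3, proline 1, budesonide 1 or any 1 library of both (0.0539 to 0.150). Actb also fell for both against proline by 0.28 ± 0.08 (0.0219; 0.0564 to 0.111 without proline 1 or 3 or any 1 library of both), and tropomyosin Tpm1 rose with proline by 0.50 ± 0.16 (0.0493). That Tpm1 call ended in 13 of 19 alternatives, among them without any 1 control or proline library, budesonide 2, both 1 or both 2 (0.0529 to 0.199). Of 7 tested genes of the related sphingosine 1-phosphate pathway, 1 was called in the 6 comparisons, which is 1 of 42 results. It was the ceramidase gene Asah1, which rose by 0.82 ± 0.26 (0.0445) for both against proline, where 10.1% of all tested genes were called. That call ended in 9 of 19 alternatives, with no filter (0.0580) and without control 1, budesonide 2 or any 1 library of proline or both (0.0521 to 0.203).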

How the data were processed

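Per the labels' protocols, column-extracted total RNA was made into QuantSeq libraries of the 3′ end of polyadenylated RNA. Tools listed by the submitters' processing notes, without their order, are STAR 2.7.5c, featureCounts 2.0, cutadapt 2.5, bcl2fastq and DESeq2, and the build is GRCm39. For annotation, strand setting and multiply mapped reads: not given in the sources used here. The authors deposited whole-number counts per gene symbol, which were tested here. Their second deposited table is a normalised signal, each count over a size factor of its library (0.729 to 2.16), within 0.01 for 100% of values; it served as a check only.

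Counts were fitted in R 4.3.3 with edgeR 4.0.16: filterByExpr (minimum count 10, minimum total 15; 13852 genes tested), TMM, and the two-sided quasi-likelihood F test on all 12 libraries with 1 coefficient per group (8 residual degrees of freedom). Adjusted p-values are Benjamini-Hochberg over all tested genes. Genes were called below 0.05, and "rose" or "fell" marks called genes. The SE is the absolute log2 change (prior count 0.125) over the square root of F, and 95% intervals use the degrees of freedom of the test. The interaction is the proline effect with budesonide minus that without. Comparisons that share a group share its libraries. The code was tested on simulated data.

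Members and gene lists were chosen with earlier results of these data known. Named genes are the members, every gene with counts in the Enpp, receptor and phosphatase lists that the text turns on, up to 4 called genes per list and comparison, the 8 genes most correlated with Enpp2 (log2 CPM, prior count 2) and its 3 coding neighbours on each side. The AGAACA motif was added after the other motifs were counted. Alternatives were DESeq2 size factors, no low-count filter, DESeq2 1.42.0, limma-voom 3.58.1, only the libraries compared, a replicate block, each library left out, and control 3 with budesonide 3 left out. Intervals and floors from counts cover counting error only. A test of Enpp2 in budesonide against control had been planned, but is not given, since its libraries served to choose the gene. Values of markers were added after they were seen. Some genes of the lists are not reported here.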

Additional observations from a re-analysis of the deposited data

Results flagged for a closer look

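For 6 of the genes described with values or calls in the text the proline effect differed with and without budesonide, by the interaction term of the edgeR fit. Other genes of the marker lists passed this test as well. Of all tested genes 0.469% were called for the interaction. Genes were named in part for their calls or their likeness to Enpp2, so the 6 are not read as a share. Rock1 changed by -1.05 ± 0.15 with proline alone and by 0.07 ± 0.15 in the presence of budesonide, a difference of 1.12 ± 0.21 (log2, adjusted p = 0.00882, range over alternatives 7.16e-05 to 0.0460). Pim2, the gene most correlated with Enpp2, changed by 3.00 ± 0.15 and 1.62 ± 0.15, a difference of -1.37 ± 0.20 (adjusted p = 0.000967). Pou3f1 changed by 3.15 ± 0.16 and 1.52 ± 0.15, a difference of -1.63 ± 0.21 (adjusted p = 0.000183). For the stem cell markers the difference was 1.55 ± 0.19 for Esrrb (adjusted p = 0.000162), 1.56 ± 0.23 for Zfp42 (0.000949) and 1.01 ± 0.20 for Nanog (0.0173). The Nanog call ended without control 1, proline 1, proline 3, budesonide 1, budesonide 2, both 1 or both 3, with adjusted p up to 0.0918. For Enpp2 the difference was -0.43 ± 0.45, given with no test because the gene was picked on both effects.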

How the results depend on the processing

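Without a replicate block the counts of called genes were 1091 (proline against control), 902 (budesonide against control), 1399 (both against proline), 203 (both against budesonide), 993 (both against control) and 65 (interaction). For both against budesonide the count was 354 with no low-count filter, 435 with DESeq2, 127 in a fit of only those libraries and 128 with the replicate block. For the interaction it was 134 with no filter and 162 with DESeq2. For budesonide against control it was 519 with only those libraries and 579 without control 3 and budesonide 3. Leaving out 1 library at a time gave 687 to 1251, 629 to 912, 847 to 1679, 77 to 301, 530 to 1195 and 42 to 86 in the order above. The receptors and phosphatases called were 0 in place of 1 for proline with no filter, with limma-voom, with only those libraries, with the replicate block and without control 3 and budesonide 3. They were 0 in place of 1 for budesonide with only those libraries and without control 3 and budesonide 3, and 1 in place of 0 for the interaction with DESeq2. Leaving out 1 library gave 0 to 1 for proline, 0 to 1 for budesonide and 1 to 2 for both against control. The Enpp2 change with budesonide was -1.56 to -1.38 with 1 library left out. The block also changed the calls of the named genes given above and no other receptor or phosphatase call. Same-numbered libraries of different groups had deviations that correlated at -0.0767 to 0.0529 in 18 pairs, and 3 of 12 libraries correlated best with their own number, so the numbers are not shown to pair the libraries. No called direction of a named gene turned. Depth limits what can be said of genes with few counts, Plpp1, Lpar3 and Lpar6 among them. The alternatives for correlations and family sums were chosen after seeing the data and moved none beyond its spread.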
